A study of Homo sapiens with 36 samples.

Results

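FD cells were MRC-5 fibroblasts, an established line from human fetal lung, that carried a GFP lentivirus and were treated with 2 small molecules for up to 2 days. The members described here are the genes whose group value reached 1 FPKM (fragments per kilobase of transcript and per depth of the library, a level corrected for transcript length) in FD cells at 0.5, 1 or 2 days post treatment (DPT). That left 12728 of 23120 loci joined by gene name and locus across the authors' tables. ZBTB42, with a highest value of 1.00027 FPKM, lay just inside the threshold and SPRN, with 0.999839 FPKM, just outside. The change over time was log2((FPKM at 2 DPT + 1)/(FPKM at 0.5 DPT + 1)), with the steps from 0.5 to 1 DPT and from 1 to 2 DPT on the same scale, which understates changes of low genes. It was available for 12722 members. The other 6, among them EEF1A1 and MTRNR2L2, were marked in the authors' deposited tables as a failed test (FAIL) or as too many fragments (HIDATA).

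FD cells received forskolin (10 µM), which activates adenylyl cyclase and so raises cyclic AMP (cAMP), and dorsomorphin (1 µM), which inhibits BMP type I receptors and AMP-activated kinase, in a medium for neuron induction. GFP cells carried the GFP virus and received no molecules. NFD cells carried a lentivirus for HA-tagged NEUROG2, a proneural transcription factor, and received both molecules at the same doses. Every group was therefore transduced and sampled at 0.5, 1 and 2 DPT, with 3 libraries per group, so that FD cells make up 9 of the 36 libraries in 12 groups. No label states whether replicate libraries came from different cultures, so deposited p-values measure only the spread between libraries, which may be technical. Labels differ on the medium of GFP cells: one names a medium with 15% serum and another the neuron induction medium, so a difference from GFP cells cannot be told apart from a change of medium. All cells are 1 line. Each value is the authors' single FPKM per group, so a change over time within FD cells has no error and no test here. Depth is unknown.

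Forskolin acts through protein kinase A, which phosphorylates CREB, a factor that binds cAMP response elements in promoters and turns on early genes such as the NR4A nuclear receptors, and also genes that damp the signal, such as phosphodiesterases. BMP receptors signal through SMAD proteins to the ID genes. Fibroblasts that leave the cell cycle shut down the genes of DNA replication and mitosis, and cultured fibroblasts make sterols and fatty acids themselves when lipoproteins are scarce, under the SREBP factors.

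The label was checked against markers of cell types. All 10 fibroblast markers were members, and their summed level was 6345, 6121 and 5301 FPKM in FD cells at 0.5, 1 and 2 DPT against 8507, 9015 and 9379 FPKM in GFP cells. VIM, the intermediate filament of fibroblasts, was at 3219, 2334 and 1364 FPKM in FD cells and 4453, 4377 and 3794 FPKM in GFP cells, and PDGFRA, a growth factor receptor, at 87.9, 232 and 331 FPKM and 77.3, 144 and 201 FPKM. The list had 4 genes at least 2-fold higher and 1 lower at 2 DPT, with a median change of 0.22 in FD, 0.54 in GFP and -0.96 in NFD cells. Of the neuronal markers 4 of 10 reached 1 FPKM: TUBB3, a tubulin, with 420.1, 270.4 and 171 FPKM, SNAP25, a vesicle fusion protein whose locus is shared by 3 genes in the tables, with 5.22, 7.27 and 20.6 FPKM, SYT1 with 3.94, 7.17 and 6.43 FPKM and SYP with 0.0822, 0.137 and 1.01 FPKM, for a summed level of 429.6, 285 and 201 FPKM in FD and 256, 235 and 166 FPKM in GFP cells, nearly all of it TUBB3. Of the glia markers 2 of 5 were members, 1 of them MBP with 0.616, 0.828 and 2.32 FPKM, while OLIG2 was listed at 0, and the list summed to 1.16, 1.61 and 4.97 FPKM in FD and 0.587, 0.837 and 1.11 FPKM in GFP cells. Of the epithelium markers 2 of 5 were members, KRT8 and KRT18, with KRT5 listed at 0 and a sum of 22.7, 13.8 and 12.5 FPKM in FD and 42, 32 and 31.4 FPKM in GFP cells. Of the blood markers 1 of 4 was a member, CD68, a lysosomal protein, with 63.4, 67.2 and 53.8 FPKM, and CD3E was listed at 0, for a sum of 63.9, 67.6 and 54.2 FPKM in FD and 59.8, 62.1 and 29.6 FPKM in GFP cells. Of the endothelium markers 0 of 5 were members, with a sum of 0.798, 0.561 and 0.315 FPKM in FD and 0.65, 0.577 and 0.528 FPKM in GFP cells. The part of these marker levels in the results was not tested. In bulk RNA, fewer cells of a type and less RNA per cell cannot be told apart.

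Low levels of neuronal transcripts appeared in FD cells at 2 DPT. By a rule chosen after the values were seen, 31 genes were under 0.2 FPKM in FD cells at 0.5 and 1 DPT and in GFP cells at every time but at or above 0.5 FPKM in FD cells at 2 DPT, while 0 genes met the same rule at 0.5 DPT alone and 0 at 1 DPT alone. They include OLFM1 with 1.71 FPKM, HPCA, a neuronal calcium sensor, with 1.68 FPKM, GRIA2, a glutamate receptor subunit, with 1.18 FPKM, GPM6A with 1.08 FPKM, and SLC17A7, a vesicular glutamate transporter, with 0.654 FPKM at 2 DPT. Of the 31 genes, 18 were at or above 0.5 FPKM in NFD cells at 2 DPT, which carried NEUROG2, against 9.03% of the 7294 genes outside small RNA that were as low in FD cells at 0.5 and 1 DPT and in GFP cells. Another 10 of the 31 were under 0.2 FPKM in NFD cells. SLC17A7, OLFM1 and HPCA were at 12.2, 2.51 and 2.16 FPKM in NFD cells at 2 DPT, while GRIA2 was at 0.0352 FPKM and GPM6A at 0.00885 FPKM there, so these last ones were higher in FD than in NFD cells. NEUROG2 itself was at 12.7, 12.3 and 15.4 FPKM in FD cells at 0.5, 1 and 2 DPT and at 36.7, 18.5 and 15.3 FPKM in GFP cells, although neither group received its virus. Of the list of neuronal structure and synapse genes, 24 of 40 were not members, and their summed level was 2.25, 2.57 and 8.10 FPKM in FD cells against 2.79, 3.18 and 3.39 FPKM in GFP cells. Of these 24, 23 were higher at 2 than at 0.5 DPT in FD cells and 11 in GFP cells. STMN2, ELAVL4 and RBFOX3, which are used as neuron markers, were listed at 0 in FD cells at 0.5 DPT and were at 0.389, 0.484 and 0.326 FPKM at 2 DPT, whereas DCX stayed low, at 0.0225 FPKM. Whether these transcripts came from the treated fibroblasts or from RNA of another sample cannot be told apart with 1 value per group and time. This bears on every FD value at 2 DPT and every change to 2 DPT given below, and its part in them was not tested. The source of the NEUROG2 reads in GFP cells and in FD cells at 0.5 and 1 DPT was not tested either. That question bears on the GFP values, on the earlier FD values and on comparisons between them.

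Most genes of FD cells differed little over the 2 days. The median FPKM of members was 10.5, 10.4 and 10.8 at the 3 times, and the median change from 0.5 to 2 DPT was 0.03 on the log2 scale, with quartiles of -0.31 and 0.38. At least 2-fold higher at 2 DPT were 773 members, or 6.08%, and at least 2-fold lower were 744, or 5.85%. When each column was scaled to the same total FPKM the counts were 575 higher and 989 lower, and the median change of all members moved from 0.03 to -0.13. The total was 879949, 870607 and 1002940 FPKM, and the small RNA RMRP alone went from 136165 to 217795 FPKM.

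More decreases of at least 2-fold came in the first step than in the second, and as deposited the increases were similar in number in both. In the step from 0.5 to 1 DPT, 293 members were at least 2-fold higher (2.3%) and 459 at least 2-fold lower (3.61%). From 1 to 2 DPT, 299 were higher (2.35%) and 228 lower (1.79%). With columns scaled to the same total, 304 were higher and 454 lower in the first step, and 232 higher and 332 lower in the second. The balance of higher and lower genes in the second step thus turned with the scaling. Of the genes with a 2-fold step, 364 were lower in the first step only, 135 in the second only and 40 in both. Higher levels were seen in the first step only for 200 genes, in the second only for 204 and in both for 40. Small RNA loci made up 540 of the members and most of the genes with a turn at 1 DPT: 53 genes peaked and 55 had a trough by at least 2-fold on both sides, but without small RNA loci these numbers were 2 and 2.

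GFP cells, without the molecules, also had many genes at other levels after the same 2 days. In GFP cells 456 of the same members were at least 2-fold higher at 2 than at 0.5 DPT (3.58%) and 486 lower (3.82%), and in NFD cells 613 (4.82%) and 588 (4.62%). Members were chosen by FD level alone. A 2-fold change with 1 FPKM added to each value needs at least 1 FPKM at 0.5 or 2 DPT. The filter therefore could not alter the FD counts, 773 higher and 744 lower. Genes that changed in GFP or NFD cells but stayed under 1 FPKM in FD cells were left out. The shares and overlaps given here are tilted by this and do not compare rates of change between groups. Of the 773 genes higher in FD cells, 284 were 2-fold higher in GFP cells too, which is 36.7% of the FD genes and 62.3% of the GFP genes. For lower genes the overlap was 358, or 48.1% of the FD and 73.7% of the GFP genes. The overlap with NFD cells was 161 higher genes (20.8% of the FD and 26.3% of the NFD genes) and 233 lower genes (31.3% and 39.6%). Over 12182 members outside small RNA, the change in FD cells went with that in GFP cells with a Pearson r of 0.82 and a Spearman rho of 0.76, and with that in NFD cells with 0.44 and 0.42. The genes higher in FD cells had a median change of 1.4 there, 0.8 in GFP cells and 0.28 in NFD cells, and the lower genes -1.52, -0.96 and -0.58, where the genes were picked for their FD change. Genes are not independent replicates, and these correlations are descriptions with no test. The lists used below hold 32 sets of genes, and the housekeeping list had a median change of -0.42 in FD cells and -0.19 in GFP cells, with 2 of its 15 genes at least 2-fold lower in FD cells and 0 higher.

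**Figure D1:**
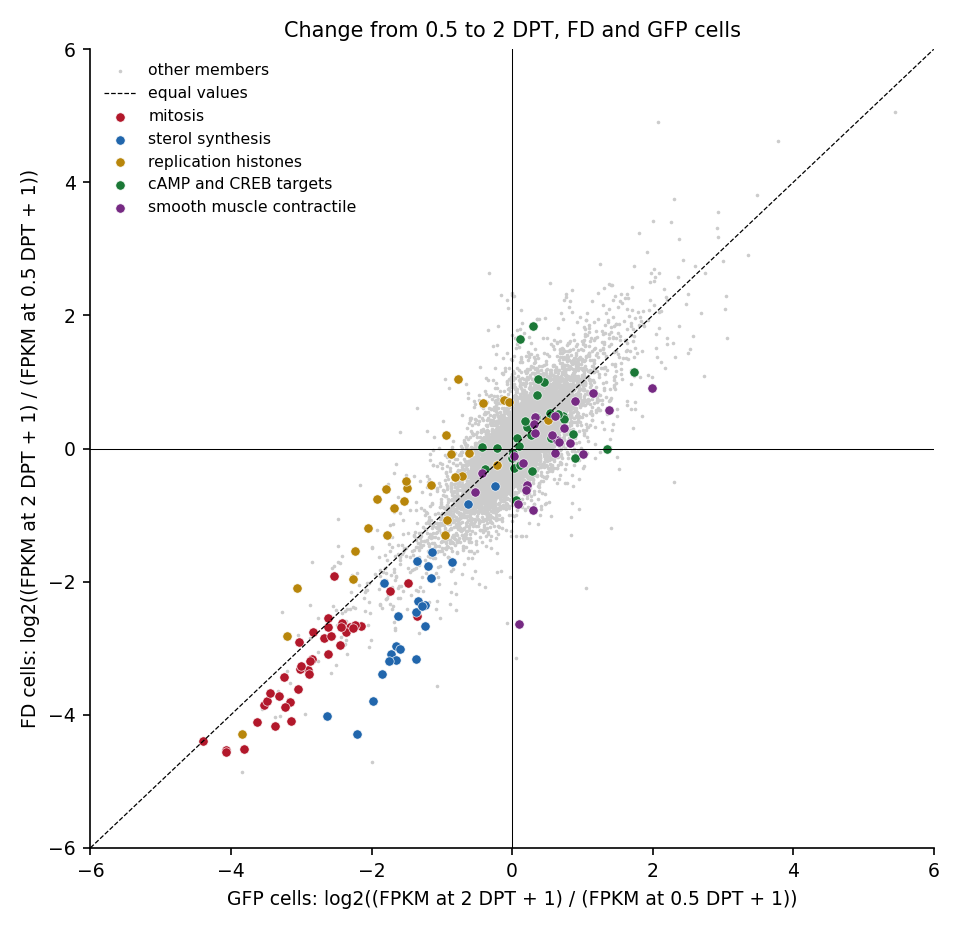
Change from 0.5 to 2 DPT on the log2(FPKM + 1) scale in GFP cells (horizontal) and FD cells (vertical), 1 point per member outside small RNA, with 5 gene lists in colour and the diagonal marking equal change. Mitosis genes lie near the diagonal at the lower left, sterol synthesis genes lie below it, and replication histones lie above it.

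Mitosis genes showed the largest decreases of any list. All 40 of them were at least 2-fold lower at 2 than at 0.5 DPT in FD cells, with a median change of -3.18, and median steps of -2.71 to 1 DPT and -0.52 to 2 DPT. The list had a median of -2.89 in GFP cells and -1.65 in NFD cells, so cells without the molecules showed the decrease too. UBE2C (chromosome 20, 44441254 to 44445596), an E2 enzyme of the anaphase-promoting complex, was at 65.8, 3.08 and 1.83 FPKM in FD cells and 52.6, 5.46 and 2.2 FPKM in GFP cells. CDC20, the activator of that complex, was at 49.5, 2.63 and 1.39 FPKM, and its change was -4.4 in FD and in GFP cells. KIF20A, a kinesin of cytokinesis whose locus is shared by 2 genes, was at 34.2, 2.8 and 0.529 FPKM, and DLGAP5, a spindle protein, at 23.4, 1.62 and 0.414 FPKM. Each of these had lost most of its level by 1 DPT.

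FD cells started above GFP cells in many of these genes, were below them in most at 1 DPT, and were called below them in fewer at 2 DPT. The authors' deposited tables showed that 18 mitosis genes were higher in FD cells at 0.5 DPT and 0 lower (0 at an unadjusted p under 0.05), then 2 were higher and 34 lower at 1 DPT, and 1 was higher and 15 lower of 35 tested at 2 DPT. For comparison, over all members tested the authors' tables called 18.3% higher and 18% lower at 0.5 DPT, 16.6% higher and 21.4% lower at 1 DPT, and 17.1% higher and 21.1% lower at 2 DPT. CDK1, the main mitotic kinase, was at 29.2, 1.84 and 0.757 FPKM in FD cells and 19.3, 4.53 and 1.29 FPKM in GFP cells, so it began higher and ended lower. TOP2A (chromosome 17, 38544772 to 38574202), which untangles replicated DNA, was at 57.1, 4.86 and 1.53 FPKM against 42.3, 9.41 and 2.06 FPKM, and CCNB2, a mitotic cyclin, at 35.2, 3.88 and 1.0 FPKM against 32.9, 9.25 and 2.29 FPKM.

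The change of the FD to GFP ratio was tested as the difference between the authors' deposited log2 fold changes at 2 and at 0.5 DPT, by an approximate two-sided z test with standard errors taken from the deposited p-values and Benjamini-Hochberg adjustment over all 12677 loci tested. A gene is said to pass at an adjusted p at or under 0.05. Of 12229 members in that test 622 passed toward higher in FD cells (5.09%) and 723 toward lower (5.91%). For 1050 members both deposited p-values were the smallest that occurs, 5e-05, and the standard error is then only bounded from above, so that a true difference can fail to pass. For these members the standard error used grows with the fold changes themselves. Large, similar fold changes in the same direction can then hardly pass, and fold changes in opposite directions always pass. Where a count in this test is 0, the number of genes at an unadjusted p under 0.05 in that direction follows. Of 35 mitosis genes in the test, 14 fell relative to GFP cells and 1, PLK1, rose, but PLK1 passed no longer when standard errors were held at or above the median for genes of like level (adjusted p = 0.051). PLK1, a mitotic kinase that shares its locus with another gene, was at 19.1, 5.37 and 4.33 FPKM against 15.2, 2.89 and 1.81 FPKM in GFP cells. CDK1 fell by 1.36 (SE 0.298, adjusted p = 0.000448) and AURKA, a spindle kinase, by 1.26 (SE 0.22, adjusted p = 9.75e-06) in log2 of the ratio.

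The promoters of the mitosis genes hold 2 known sequence elements more often than other promoters. The CHR (cell cycle genes homology region, TTTGAA on either strand) is known for binding the complex that represses these genes outside the cycle, and the CCAAT box (CCAAT on either strand) for binding NF-Y. In the 300 bases from 250 before to 50 after the start, from RefSeq on GRCh38.p14, the CHR letters were found in 25 of 34 mitosis genes with a promoter (73.5%), against 18.2% of all 27305 genes with a promoter and 14% of the 8651 members matched. CCAAT was found in 29 of 34 (85.3%), against 39.7% of all genes and 43.7% of members. Where a gene has several promoters, the one with the most matches was used for the display below. The 200 bases before the start of 4 mitosis genes among the 12 largest decreases are shown because they carry both elements, each read 5′ to 3′ on the strand of the gene, with CHR and CCAAT matches on either strand in capitals.
CDC20, chr1:43358781-43358980, plus strand: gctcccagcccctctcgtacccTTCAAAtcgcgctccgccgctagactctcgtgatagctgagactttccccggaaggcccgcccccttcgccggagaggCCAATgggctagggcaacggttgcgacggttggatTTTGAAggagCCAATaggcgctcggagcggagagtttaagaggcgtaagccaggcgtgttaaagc
TOP2A, chr17:40417897-40418096, minus strand: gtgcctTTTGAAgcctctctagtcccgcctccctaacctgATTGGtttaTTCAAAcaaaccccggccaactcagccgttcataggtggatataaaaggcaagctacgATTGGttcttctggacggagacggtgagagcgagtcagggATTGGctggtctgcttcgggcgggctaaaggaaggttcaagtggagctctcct
CDK1, chr10:60778278-60778477, plus strand: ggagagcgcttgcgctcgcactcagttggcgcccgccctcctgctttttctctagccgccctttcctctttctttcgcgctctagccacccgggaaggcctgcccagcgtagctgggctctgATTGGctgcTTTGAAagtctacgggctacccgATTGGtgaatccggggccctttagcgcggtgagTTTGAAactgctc
CCNB2, chr15:59104946-59105145, plus strand: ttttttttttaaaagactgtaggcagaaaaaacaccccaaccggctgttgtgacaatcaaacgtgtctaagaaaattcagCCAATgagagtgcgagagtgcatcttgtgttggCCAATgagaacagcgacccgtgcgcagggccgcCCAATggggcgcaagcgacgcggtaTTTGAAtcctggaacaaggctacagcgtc

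DNA replication genes were lower after the first step and level after it. Of 38 with a change, 25 were at least 2-fold lower at 2 than at 0.5 DPT and 0 higher, with a median of -1.14 and median steps of -1.12 in the first and 0.01 in the second interval. GFP cells had a median of -1.06 and NFD cells of -0.33. Next to the mitosis genes, the 12 largest decreases held RRM2, 2 histones, HMGCS1 and SNAR-G2, a small RNA listed at 0 from 1 DPT on. RRM2, a subunit of ribonucleotide reductase, was at 29.2, 2.67 and 0.847 FPKM, and TK1, thymidine kinase, at 39.6, 11.1 and 1.68 FPKM in FD cells. Helicase subunits kept more: MCM6 was at 10.6, 5.7 and 4.38 FPKM and MCM3 at 11.9, 5.18 and 7.52 FPKM, with the lowest MCM3 value at 1 DPT. PCNA, the sliding clamp, whose locus holds 2 genes, was at 107, 91.7 and 106 FPKM and showed no loss.

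Relative to GFP cells, 12, 18 and 15 replication genes were lower at 0.5, 1 and 2 DPT in the authors' deposited tables and 1, 1 and 2 higher. In the test of the ratio over time 3 of 37 fell and 2 rose. UHRF1, which carries DNA methylation through replication and shares its locus with another gene, fell by 1.79 (SE 0.544, adjusted p = 0.0169), with 13.7, 3.7 and 1.76 FPKM in FD cells against 17.7, 7.48 and 7.86 FPKM in GFP cells. GINS2 and RRM2 fell by 0.93 and 1.13, while GINS4 and MCM4 rose by 1.13 and 0.58.

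Binding sites of E2F, the factor of the G1 to S transition, were searched in 2 spellings on both strands. TTTGGCGC was found in 9 of 34 replication promoters (26.5%) against 0.795% of all genes and 1.38% of members, and TTTCCCGC in 11 of 34 (32.4%) against 1.98% and 3.36%. The CHR letters were found in 1 of 34 (2.94%). The promoters of MCM6 and GINS2 are shown as the counterpart to the mitosis promoters, with E2F matches on either strand in capitals.
MCM6, chr2:135876444-135876643, minus strand: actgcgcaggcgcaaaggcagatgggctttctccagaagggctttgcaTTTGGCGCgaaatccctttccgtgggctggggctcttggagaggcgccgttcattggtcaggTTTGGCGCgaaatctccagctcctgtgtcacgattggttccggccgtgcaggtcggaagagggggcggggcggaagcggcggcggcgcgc
GINS2, chr16:85688955-85689154, minus strand: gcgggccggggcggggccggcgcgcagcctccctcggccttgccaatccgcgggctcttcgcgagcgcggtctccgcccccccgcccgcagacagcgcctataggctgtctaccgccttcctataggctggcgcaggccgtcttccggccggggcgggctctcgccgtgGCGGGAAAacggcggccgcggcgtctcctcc

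**Figure D2:**
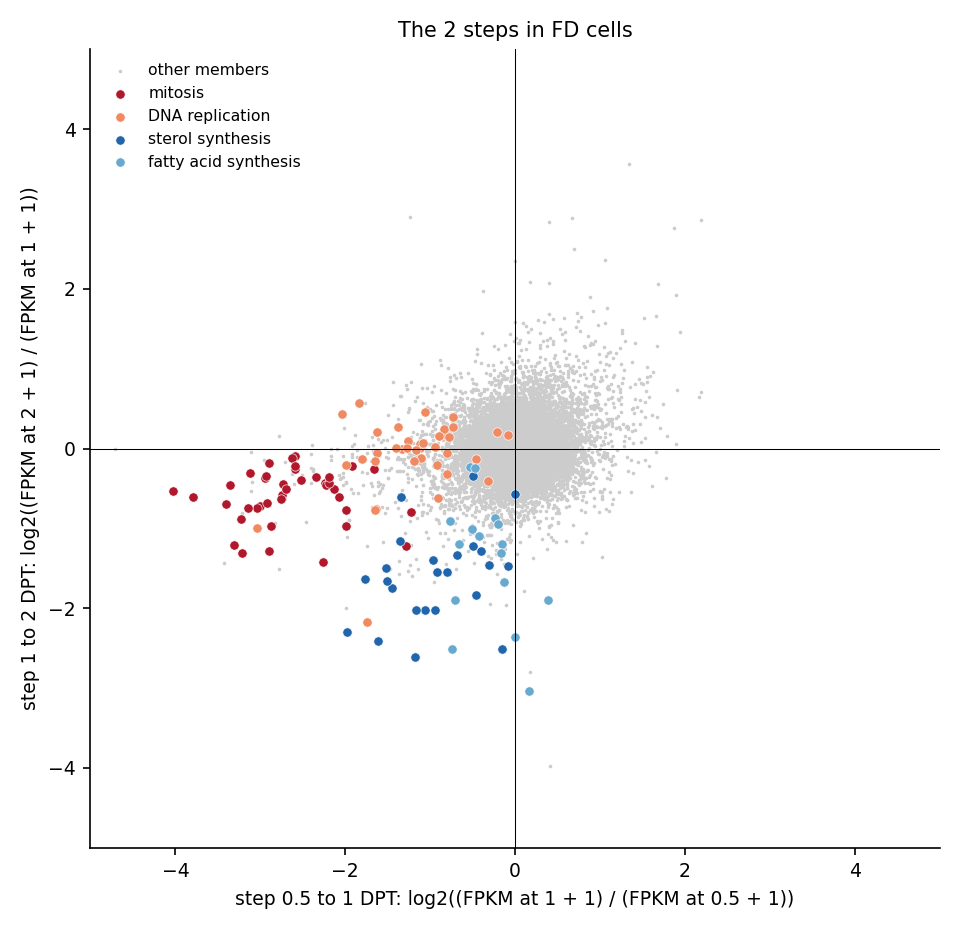
Step from 0.5 to 1 DPT (horizontal) against step from 1 to 2 DPT (vertical) in FD cells, on the log2(FPKM + 1) scale, 1 point per member outside small RNA. Mitosis and replication genes lie to the left, with medians of -2.71 and -1.12 in the first step, and sterol and fatty acid genes lie low, with medians of -1.54 and -1.20 in the second.

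Replication histones, which package newly made DNA, rose relative to GFP cells. Their median change was -0.59 in FD cells, -1.15 in GFP cells and 0.72 in NFD cells. Of 27 genes, 9 were at least 2-fold lower at 2 DPT in FD cells and 1, HIST3H2A, at least 2-fold higher. Per calls in the authors' deposited tables, 24 of 27 were lower in FD than in GFP cells at 0.5 DPT, but 9 were lower and 5 higher at 2 DPT. Over time, by the same approximate test, 16 of 27 rose relative to GFP cells and 0 fell (0 unadjusted). HIST3H2A was at 10, 8.61 and 21.9 FPKM in FD cells, 21.5, 12.2 and 12.2 FPKM in GFP cells and 46.7, 135 and 296 FPKM in NFD cells, and rose by 1.95 (SE 0.343, adjusted p = 9.75e-06). HIST1H1C, a linker histone, was at 137, 159.7 and 159 FPKM in FD cells, level over time, and at 306, 167 and 158 FPKM in GFP cells. A few histones were nearly lost in FD cells: HIST1H3B was at 242, 34.4 and 11.4 FPKM and HIST1H3G at 104, 8.76 and 2.63 FPKM. These genes are near-identical copies, so the authors' read assignment among them is uncertain.

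Sterol synthesis genes were lower at each later time. Of 24 genes, 22 were at least 2-fold lower at 2 than at 0.5 DPT in FD cells, with a median change of -2.49 and median steps of -0.95 and then -1.54. The medians were -1.37 in GFP cells and -1.55 in NFD cells. HMGCS1 (chromosome 5, 43289492 to 43313595), which makes the precursor of mevalonate, was at 208, 51.9 and 9.72 FPKM in FD cells, 19.5-fold lower at 2 than at 0.5 DPT on the FPKM + 1 scale, and at 74.2, 75.3 and 15.3 FPKM in GFP cells. SC4MOL, a sterol methyl oxidase, was at 417, 184 and 29.1 FPKM against 176, 178 and 44 FPKM. INSIG1, which holds SREBP factors back in the endoplasmic reticulum, was at 333, 108 and 19.6 FPKM against 140.04, 86.5 and 21.8 FPKM. These 3 started above GFP cells. HMGCS1 and SC4MOL ended below them, whereas INSIG1 was not called lower at 2 DPT (the authors' deposited q = 0.255).

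Calls against GFP cells turned over the 2 days. By the authors' deposited tables, 18 of the 24 were higher in FD than in GFP cells at 0.5 DPT and 1 lower, 8 and 8 at 1 DPT, and 1 higher and 14 lower at 2 DPT. By the approximate test of the ratio 18 of 24 fell relative to GFP cells and 0 rose (0 unadjusted). HMGCS1 fell by 2.14 (SE 0.40, adjusted p = 2.66e-05), and SQLE, squalene epoxidase, by 1.86 (SE 0.326, adjusted p = 9.75e-06). SQLE was at 131, 45.3 and 13.7 FPKM in FD cells and 72.6, 66.5 and 27.5 FPKM in GFP cells. PMVK and SREBF2, the gene of SREBP2 with a shared locus, were the 2 genes short of a 2-fold change, with 12.2, 8.36 and 6.39 FPKM and 36.1, 36.1 and 24.1 FPKM in FD cells.

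Of 16 sterol genes with a promoter, 14 held CCAAT (87.5%). That compares with 39.7% of all genes and 43.7% of members. The sterol element, a known site of the SREBP factors, was searched in an exact spelling on both strands. It was found in only 1 of 16 sterol promoters (6.25%), against 0.0586% of all genes and 0.0462% of members. Other spellings of it were not searched. The stretch before HMGCS1 is shown for its CCAAT matches, which are in capitals.
HMGCS1, chr5:43313413-43313612, minus strand: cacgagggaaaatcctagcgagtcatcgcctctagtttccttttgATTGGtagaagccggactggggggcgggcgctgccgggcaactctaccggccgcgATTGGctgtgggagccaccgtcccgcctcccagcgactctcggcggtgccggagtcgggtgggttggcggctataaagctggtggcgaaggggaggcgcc

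Fatty acid synthesis genes were near level for a day and lower at 2 DPT. Of 16, 14 were at least 2-fold lower at 2 DPT, with a median of -1.52 and median steps of -0.33 and then -1.2, against -1.17 in GFP cells and -0.70 in NFD cells. SCD, stearoyl-CoA desaturase, was at 475, 530.01 and 63.8 FPKM, FADS2, a fatty acid desaturase, at 279, 366 and 97.8 FPKM, and FASN, fatty acid synthase, at 109, 64.8 and 10.5 FPKM. In GFP cells SCD was at 267, 361 and 65.9 FPKM. The authors' deposited tables called 11 higher and 1 lower than GFP at 0.5 DPT, and 3 higher and 6 lower at 2 DPT. In the test over time 9 of 16 fell and 0 rose (1 unadjusted). FABP3, a fatty acid carrier outside the list, was at 57.8, 77.3 and 3.96 FPKM in FD cells and 38.6, 86.4 and 17.8 FPKM in GFP cells, with a fall of 2.75 (SE 0.554, adjusted p = 0.000104).

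Energy and redox lists had median changes close to that of housekeeping genes in FD cells, but lower ones in GFP cells. Of 25 glycolysis and hypoxia genes 8 were at least 2-fold lower and 1 higher, with a median of -0.42 in FD and -0.51 in GFP cells, where the housekeeping list, given above, had -0.42 and -0.19. The FD medians of these 2 lists are the identical value, -0.424675, as when the same gene is in the middle of both. The housekeeping list is therefore not an independent reference for the glycolysis list. LDHA, lactate dehydrogenase, was at 435, 353 and 90.5 FPKM, SLC2A1, a glucose transporter with a shared locus, at 49.2, 22.4 and 12.6 FPKM, and PFKP, a phosphofructokinase, at 53.3, 24.4 and 16.4 FPKM in FD cells. ANGPTL4, an inhibitor of lipoprotein lipase, was the one that was higher, with 0.198, 0.352 and 4.76 FPKM. Over time, by the same approximate test, 6 of 24 fell relative to GFP cells and 1, CA12, rose, and SLC2A1 fell by 1.24 (SE 0.256, adjusted p = 0.000153). Antioxidant and iron genes had a median of -0.50 against -0.32 in GFP cells, with 6 of 22 at least 2-fold lower and 1 higher. GCLM, a subunit of the enzyme that starts glutathione synthesis, was at 20.2, 7.86 and 6.54 FPKM, and TXN, thioredoxin, at 1019.96, 1035 and 413 FPKM. SLC40A1, the iron exporter, was the higher one with 6.05, 15.5 and 26.8 FPKM, and relative to GFP cells it rose by 1.12 (SE 0.205, adjusted p = 1.91e-05). In that test 2 of 22 rose and 5 fell.

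Heat shock genes were lower at 2 DPT, and chaperones of the endoplasmic reticulum were nearer to level. Of 17 heat shock genes, 6 were at least 2-fold lower and 0 higher at 2 DPT, with a median of -0.61 in FD, -0.41 in GFP and -0.91 in NFD cells, and 3 fell and 0 rose (0 unadjusted) relative to GFP cells. HSP90AA1, a cytosolic chaperone, was at 147, 91.4 and 57.3 FPKM and HSPA8 at 1212, 524 and 552 FPKM. None of the 19 genes of endoplasmic reticulum chaperones and the unfolded protein response was 2-fold higher or lower, and in the approximate z test over time 0 rose and 0 fell relative to GFP cells (4 and 1 unadjusted). Their median was -0.30. The authors' deposited tables had 11, 12 and 12 of them higher than in GFP cells at 0.5, 1 and 2 DPT and 0 lower at each time (0, 0 and 0 at an unadjusted p under 0.05). MANF, a secreted stress protein, was at 49, 30.3 and 46.1 FPKM in FD cells against 24.9, 17.1 and 23.5 FPKM.

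Most direct cAMP targets were above the GFP level at every time. Of 29 cAMP and CREB targets, 4 were at least 2-fold higher at 2 than at 0.5 DPT and 0 lower, with a median change of 0.21, against 0.29 in GFP cells and -0.08 in NFD cells. The authors' deposited tables showed that 25, 26 and 24 were higher than in GFP cells at 0.5, 1 and 2 DPT and 2 lower at each time. NR4A1 (chromosome 12, 52416615 to 52453291), an orphan nuclear receptor, was at 24.4, 36.6 and 33.7 FPKM in FD cells and 0.504, 0.656 and 1.52 FPKM in GFP cells. DUSP1, a phosphatase that switches off MAP kinases, was at 100.2, 98.4 and 81.8 FPKM against 16.5, 13.9 and 16.8 FPKM, and CREM, a CREB family member, at 25.6, 22.5 and 25.8 FPKM against 11.1, 9.91 and 9.47 FPKM. FD levels of these genes lay well above GFP levels at every time and differed little among the times. For other targets the ratio to GFP cells was smaller at 2 than at 0.5 DPT, although FOS (adjusted p = 0.0566) and PTGS2 (adjusted p = 0.218) did not pass the approximate test over time. FOS, a subunit of the AP-1 factor, was at 3.35, 2.85 and 2.93 FPKM in FD cells while its GFP level was 0.117, 0.349 and 1.07 FPKM, and PTGS2, a cyclooxygenase, was at 1.57, 3.52 and 2.68 FPKM against 0.114, 0.327 and 0.755 FPKM. FOSB, which is too low to be a member, was at 0.857, 0.368 and 0.159 FPKM in FD cells against 0.146, 0.238 and 0.254 FPKM and ended below the GFP level. FOS, PTGS2 and FOSB were chosen after their values were seen.

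The 4 targets that were 2-fold higher at 2 DPT include genes that damp the signal or act downstream. PDE3A (chromosome 12, 20522196 to 20833881), a phosphodiesterase that breaks down cAMP, was at 3.09, 7.76 and 13.6 FPKM in FD cells and 0.111, 0.208 and 0.366 FPKM in GFP cells. PPARGC1A, a coactivator of mitochondrial genes, was at 3.0, 9.64 and 11.5 FPKM against 0.735, 0.876 and 0.877 FPKM. SIK1, a kinase that restrains CREB coactivators, was at 9.91, 15.1 and 21.6 FPKM against 0.486, 0.571 and 0.918 FPKM. RGS2, a brake on G protein signalling, was at 104, 320.1 and 232 FPKM with its highest value at 1 DPT, against 8.9, 17.1 and 31.8 FPKM. In NFD cells, which received the same molecules, PDE3A was at 7.15, 6.17 and 7.27 FPKM and RGS2 at 157, 102 and 56.2 FPKM. By the approximate test of the ratio 1 of 29 fell relative to GFP cells, JUNB, an AP-1 factor, by 1.41 (SE 0.358, adjusted p = 0.0031), and 0 rose (0 unadjusted). Targets with large, similar fold changes over GFP cells at the smallest deposited p-value at both times could hardly pass in either direction. The low counts therefore do not show that the ratios of these targets were steady. JUNB was level in FD cells, with 37.2, 32.6 and 37.1 FPKM, and higher at each later time in GFP cells, with 14.3, 17.5 and 37.9 FPKM.

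Among 32 components of the cAMP pathway, 3 were at least 2-fold higher and 1 lower at 2 DPT, with a median of 0.22, and 1 of 31 rose and 0 fell (4 unadjusted) in the test over time. PRKAR2B, a regulatory subunit of protein kinase A, was at 11.8, 18.2 and 24.9 FPKM, PDE1A at 0.755, 2.14 and 4.78 FPKM and PDE4C at 0.171, 0.522 and 1.38 FPKM. CREB3L1, a membrane-bound factor of the CREB family, was the lower one with 39.6, 23.8 and 14.3 FPKM. PKIA, an inhibitor of protein kinase A, was at 1.97, 3.16 and 2.87 FPKM against 2.69, 2.29 and 2.16 FPKM in GFP cells and rose by 0.86 (SE 0.202, adjusted p = 0.00125).

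The full cAMP response element TGACGTCA was found in 5 of 25 target promoters (20%), against 2.25% of all genes and 4.03% of members, and its shorter core TGACG, on either strand and contained in the full element, in 15 of 25 (60%) against 28.4% and 41.5%. The core was also in 9 of 16 sterol synthesis promoters (56.2%), 17 of 34 mitosis promoters (50%) and 17 of 34 DNA replication promoters (50%), so it was not particular to the targets. The full element was in 0 of 16 sterol synthesis promoters, 3 of 34 mitosis promoters (8.82%) and 3 of 34 DNA replication promoters (8.82%). Of the 12 genes with the largest increases, 8 had a promoter, and 0 of 8 held the full element and 1 of 8 the core (12.5%). The promoters of DUSP1, CREM and NR4A3 are shown as those of early targets, with matches of either form in capitals. NR4A3, a nuclear receptor, was at 4.68, 6.01 and 4.43 FPKM in FD cells.
DUSP1, chr5:172771196-172771395, minus strand: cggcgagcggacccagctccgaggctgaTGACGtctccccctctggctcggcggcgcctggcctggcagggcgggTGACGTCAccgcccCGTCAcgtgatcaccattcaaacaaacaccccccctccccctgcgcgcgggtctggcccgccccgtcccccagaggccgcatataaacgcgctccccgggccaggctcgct
CREM, chr10:35195702-35195901, plus strand: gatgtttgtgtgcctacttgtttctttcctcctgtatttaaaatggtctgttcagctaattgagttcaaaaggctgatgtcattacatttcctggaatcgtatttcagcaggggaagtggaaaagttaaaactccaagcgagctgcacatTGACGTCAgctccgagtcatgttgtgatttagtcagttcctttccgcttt
NR4A3, chr9:99821685-99821884, plus strand: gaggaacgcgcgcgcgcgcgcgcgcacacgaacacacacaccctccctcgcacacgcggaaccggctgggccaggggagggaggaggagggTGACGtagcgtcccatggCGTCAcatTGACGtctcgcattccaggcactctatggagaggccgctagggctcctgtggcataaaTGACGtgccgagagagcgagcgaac

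**Figure D3:**
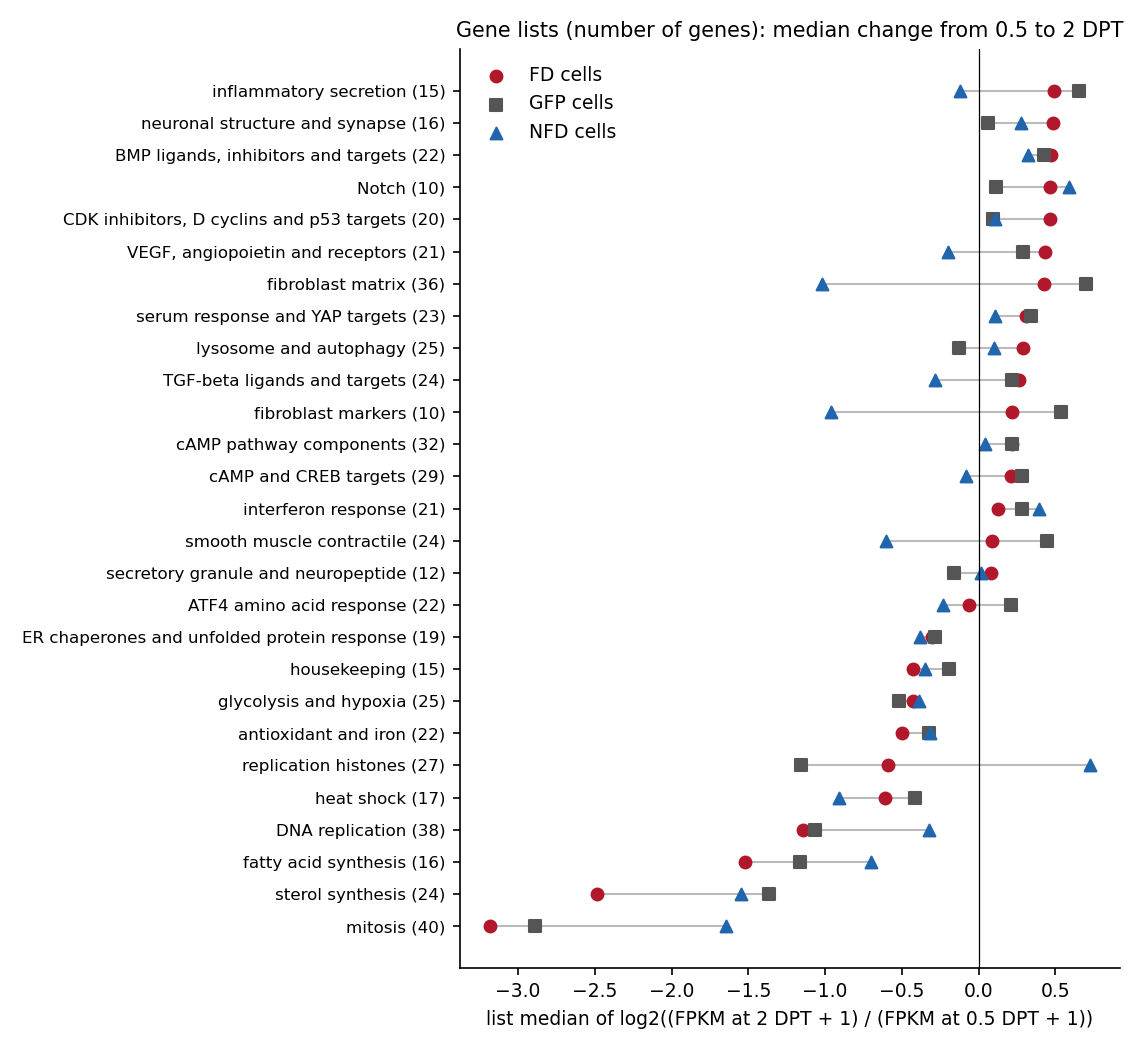
Median change from 0.5 to 2 DPT, on the log2(FPKM + 1) scale, of 27 gene lists with at least 10 members, in FD, GFP and NFD cells. The mitosis, sterol, fatty acid and replication lists lie lowest in FD cells, and the matrix and contractile lists lie above 0 in FD and GFP cells but below 0 in NFD cells; the contractile median in FD cells is 0.09 and drops to -0.08 with columns scaled to the same total.

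The 12 largest increases in FD cells included genes of an enzyme, an apolipoprotein, complement and collagen. PTGDS (chromosome 9, 139871955 to 139876194), a prostaglandin D synthase, was at 1.47, 5.23 and 72.8 FPKM in FD cells, 3.69, 5.43 and 18.7 FPKM in GFP cells and 1.88, 2.27 and 9.94 FPKM in NFD cells. TXNIP (chromosome 1, 145438461 to 145442628), an inhibitor of thioredoxin and glucose uptake, was at 20.1, 66.7 and 283 FPKM against 66.6, 145 and 333 FPKM in GFP cells. APOE, an apolipoprotein, was at 3.34, 8.01 and 45.5 FPKM against 7.63, 11.8 and 33.5 FPKM in GFP and 6.09, 12.7 and 65.2 FPKM in NFD cells. All 3 began below GFP cells, and PTGDS and APOE ended above them.

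All 12 genes with the largest increases were at least 2-fold higher at 2 than at 0.5 DPT in GFP cells too. COL14A1, a collagen of fibril surfaces, was at 3.65, 16.3 and 64.4 FPKM in FD cells and 2.06, 7.53 and 33.1 FPKM in GFP cells, and C7, a complement component, at 0.0757, 0.708 and 11.6 FPKM and 0.179, 0.767 and 8.0 FPKM. GAS1, a growth arrest protein of the cell surface, was at 2.17, 8.11 and 27.3 FPKM and 2.99, 4.54 and 19.7 FPKM, and SHISA3 at 0.16, 0.532 and 9.98 FPKM and 0.36, 0.222 and 3.75 FPKM. C1QL1, a C1q family protein, was at 1.17, 7.32 and 21.9 FPKM in FD and 11.2, 31.9 and 92 FPKM in NFD cells. FGL2 and A2M, a protease inhibitor, and NNAT each share a locus with another gene and were at 33.5, 42.6 and 57.4 FPKM at 2 DPT. NBL1, a BMP antagonist, had the largest change, with 3.84, 21 and 159.5 FPKM, but its locus is shared by 3 genes and the authors' read assignment there is uncertain.

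These genes were picked for their change in FD cells, which enters the difference from GFP cells over time, so a count of them that passed that test supports nothing. It was 5 of the 10 in the test, and C7 and SHISA3 were not in it. Relative to GFP cells, PTGDS rose by 3.29 (SE 0.584, adjusted p = 1.05e-05), FGL2 by 2.02 (SE 0.558, adjusted p = 0.00744), APOE by 1.63 (SE 0.315, adjusted p = 5.19e-05), TXNIP by 1.5 (SE 0.443, adjusted p = 0.0137) and GAS1 by 0.93 (SE 0.185, adjusted p = 8.5e-05). PTGDS and APOE are known to be made by cells of the nervous system as well, and the part of the neuronal transcripts found at 2 DPT in these values was not tested.

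**Figure D4:**
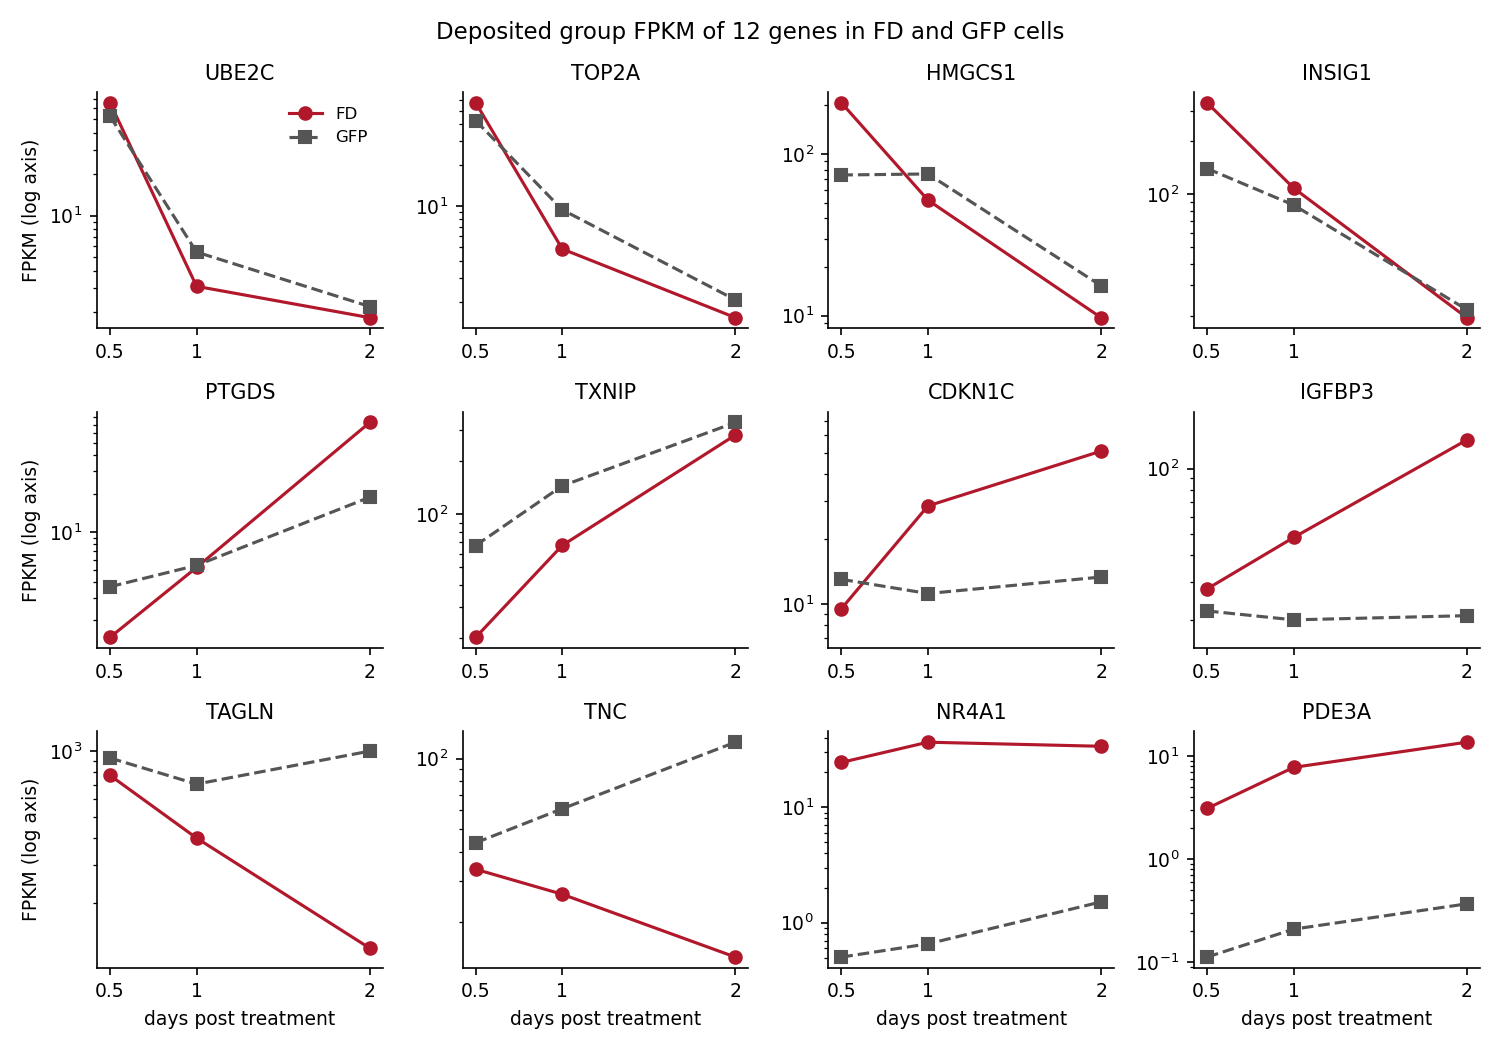
FPKM of 12 genes at 0.5, 1 and 2 DPT in FD cells (red circles, solid lines) and GFP cells (grey squares, dashed lines), on a logarithmic axis, 1 authors' value per point. UBE2C and TOP2A drop in both groups, and TAGLN and TNC drop in FD cells only. HMGCS1 and INSIG1 start higher in FD cells, and HMGCS1 drops below GFP cells while INSIG1 ends near them.

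Some genes took unlike courses in FD and GFP cells. They were near level in 1 group, went in opposite directions, or, as IL7R, were lower at 2 DPT in both but more so in FD cells. All of these genes were chosen after their values were seen. IGFBP3 (chromosome 7, 45951843 to 45960871), which binds insulin-like growth factors, was at 27.9, 48.1 and 135 FPKM in FD cells, 22.1, 20.1 and 21 FPKM in GFP cells and 29.6, 13.4 and 20.8 FPKM in NFD cells, and rose relative to GFP cells by 2.35 (SE 0.673, adjusted p = 0.0103). CDKN1C (chromosome 11, 2904447 to 2906995), the CDK inhibitor p57, was at 9.55, 28.4 and 50.8 FPKM against 13, 11.2 and 13.4 FPKM and rose by 2.38 (SE 0.492, adjusted p = 0.000163). OLFML2B, an olfactomedin-like matrix protein, was at 1.06, 3.32 and 11.9 FPKM against 1.2, 0.737 and 0.748 FPKM. MAOA, a monoamine oxidase, was at 1.84, 6.48 and 9.17 FPKM against 1.33, 1.64 and 1.03 FPKM, and CFD, complement factor D, at 0.72, 1.28 and 6.3 FPKM against 1.11, 1.07 and 1.3 FPKM. OLFML2B, MAOA and CFD rose by 4.16, 2.69 and 2.91 in the same test.

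In the other direction, F3, tissue factor, which starts coagulation, was at 76.4, 36.4 and 17.1 FPKM in FD cells and 95.1, 149.99 and 198 FPKM in GFP cells, a fall of 3.22 relative to them (SE 0.878, adjusted p = 0.00667). KIAA1199, a hyaluronan-binding protein with a shared locus, was at 5.61, 4.57 and 3.67 FPKM against 9.36, 26 and 50.2 FPKM. IL7R, a cytokine receptor, was at 8.13, 3.07 and 0.565 FPKM against 11, 9.28 and 4.91 FPKM. KIAA1199 and IL7R fell by 3.04 and 2.68 in the test over time.

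Contractile genes fell relative to GFP cells or did not pass the test. Their median change was 0.09 in FD, 0.45 in GFP and -0.60 in NFD cells, with a sign that turns in FD cells (-0.08) when columns are scaled to the same total. In FD cells 1 of 24 was at least 2-fold lower and 0 higher. Per calls in the authors' deposited tables, 12, 15 and 18 of 24 were lower than in GFP cells at 0.5, 1 and 2 DPT and 1 higher at each time. TAGLN (chromosome 11, 117070039 to 117075508), an actin-binding protein of smooth muscle, was the one that was 2-fold lower, with 774, 398 and 124 FPKM in FD cells against 931, 706 and 1001 FPKM in GFP and 693, 203 and 42.8 FPKM in NFD cells. MYL9, a myosin light chain, was at 485, 391 and 273 FPKM against 559, 509 and 591 FPKM, and TPM2, a tropomyosin, at 1033, 724 and 543 FPKM against 1158, 1166 and 1424 FPKM. In the test over time 7 fell and 0 rose (0 unadjusted), with TAGLN by 2.75 (SE 0.752, adjusted p = 0.00685), TPM2 by 1.23 (SE 0.365, adjusted p = 0.0143) and MYL9 by 0.91. MYOCD, the coactivator of these genes, was the one that was higher than in GFP cells at each time, with 9.05, 15.4 and 9.68 FPKM against 0.928, 1.52 and 2.42 FPKM. ACTA2, smooth muscle actin, was higher at each later time in both, with 37, 49.2 and 70.4 FPKM against 50.7, 74.3 and 204 FPKM, and its locus is shared by 3 genes.

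Matrix genes were on balance higher at the end in FD cells. Of 36, 10 were at least 2-fold higher and 2 lower, with a median of 0.43 against 0.70 in GFP and -1.02 in NFD cells. MFAP4, a protein of elastic fibres with a shared locus, was at 89.1, 285 and 694 FPKM, FBLN1, a fibulin, at 37.8, 75.1 and 221 FPKM, and DCN, the proteoglycan decorin, at 304, 678 and 1122 FPKM. MFAP4 rose relative to GFP cells by 1.03 (SE 0.186, adjusted p = 1.3e-05) and FBLN1 by 0.49 (SE 0.17, adjusted p = 0.0385), the 2 that rose of 36, and 8 fell. TNC, tenascin C, was at 33.6, 26.2 and 14.1 FPKM in FD cells and 43.6, 61 and 118 FPKM in GFP cells, a fall of 2.68 (SE 0.763, adjusted p = 0.00965), and FBN2, fibrillin 2, stayed at 13.3, 14.9 and 13.6 FPKM while GFP cells went through 19.2, 30.1 and 52 FPKM. By the authors' deposited tables, 17, 19 and 26 of 36 were lower than in GFP cells at the 3 times, and 6, 5 and 7 higher.

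Growth factor pathways differed gene by gene. Of 24 TGF-beta ligands and targets, 6 were at least 2-fold higher and 4 lower (median 0.26, GFP cells 0.22). TGFB3, a ligand, was at 1.3, 2.87 and 5.93 FPKM in FD cells and 9.3, 20.4 and 48.2 FPKM in NFD cells, whereas SNAI1, a repressor of epithelial genes, was at 11.9, 3.26 and 2.14 FPKM. Over time, by the same approximate test, 1 of 24, IGFBP3, rose and 6 fell, with SNAI1 at -1.85 (SE 0.429, adjusted p = 0.00105). Of 22 BMP genes, 2 were at least 2-fold higher, BMP4 with 5.27, 22.6 and 38.1 FPKM and SMAD1 with 8.07, 13.5 and 17.7 FPKM, and 1 lower, the antagonist GREM1 with 375, 229 and 177 FPKM (median 0.47, GFP cells 0.42). The ID genes, direct targets of BMP signalling, followed no common course. ID1 was at 4.16, 1.39 and 3.97 FPKM in FD cells against 8.62, 4.04 and 9.39 FPKM in GFP cells, ID2 at 5.21, 5.58 and 6.58 FPKM against 17.7, 12.3 and 13.1 FPKM and ID3 at 20.9, 29.9 and 27.9 FPKM against 5.56, 3.39 and 8.88 FPKM. By the approximate test of the ratio 0 of the BMP genes rose (0 unadjusted) and 2, SMAD1 and SMAD9, fell.

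Of 23 serum response and YAP targets 2 were at least 2-fold higher and 0 lower (median 0.31, GFP cells 0.34). They were CTGF, a matricellular protein, with 78.9, 143 and 199 FPKM, and SPRY1, an inhibitor of receptor kinase signalling, with 3.87, 6.77 and 14.1 FPKM. CYR61, a related matricellular protein, was at 3.81, 9.07 and 4.95 FPKM in FD cells against 25.6, 32.2 and 28.3 FPKM in GFP cells. In the test over time 1 fell, ETV4, and 0 rose (2 unadjusted). Of 10 Notch genes 3 were at least 2-fold higher and 0 lower (median 0.47, GFP cells 0.12), namely HES1 with 1.34, 1.65 and 3.79 FPKM, HES6 with 4.89, 9.54 and 14.6 FPKM and DNER with 5.55, 7.64 and 14.3 FPKM. In the approximate z test over time 0 rose and 0 fell (0 and 1 unadjusted). Of 21 VEGF, angiopoietin and other growth factor genes 6 were at least 2-fold higher and 1, the receptor FLT1, lower (median 0.43, GFP cells 0.29). KDR, a VEGF receptor, was at 0.753, 2.86 and 5.04 FPKM and PGF, a ligand of FLT1, at 0.744, 1.08 and 3.37 FPKM, while ANGPTL2, an angiopoietin-like protein with a shared locus, was at 20.1, 61 and 115 FPKM. In that test 2 rose, PGF and ANGPTL2, and 5 fell.

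CDK inhibitors and p53 targets were diverse. Of 20 genes in this list 5 were at least 2-fold higher and 1 lower, with a median of 0.47 in FD and 0.10 in GFP cells, and 3 rose and 0 fell (1 unadjusted) in the test over time. The 3 were CDKN1C, CDKN2B, the inhibitor p15, with 3.34, 5.73 and 6.56 FPKM, and GDF15, a stress cytokine, with 36.5, 38.8 and 84.4 FPKM. CDKN2B and GDF15 have shared loci. CDKN1A, the inhibitor p21, was high throughout with 703, 751 and 515 FPKM in FD and 733, 683 and 670.1 FPKM in GFP cells. CDKN2C, the inhibitor p18, was the lower one, with 9.78, 4.12 and 3.46 FPKM.

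Inflammatory genes were mostly above GFP cells from the start: of 15, 13, 12 and 10 were higher at 0.5, 1 and 2 DPT in the authors' deposited tables and 1, 1 and 2 lower. Over time 3 were at least 2-fold higher in FD cells and 1 lower (median 0.49, GFP cells 0.66). CCL2, a chemokine for monocytes, was at 6.86, 13.5 and 52.9 FPKM against 7.26, 10 and 18.7 FPKM and rose by 1.59 (SE 0.414, adjusted p = 0.00425), LIF was at 11.2, 24.8 and 47.3 FPKM, and IL1RL1, a receptor, was near 0 at 2 DPT with 1.65, 0.535 and 0.0432 FPKM. IL6 fell relative to GFP cells by 1.33. Of 21 interferon response genes, 3 were at least 2-fold higher and 0 lower (median 0.13, or -0.02 with columns scaled to the same total, GFP cells 0.28), among them IFI6 with 18.2, 26.3 and 55 FPKM and STAT2 with 31.8, 67.1 and 77.2 FPKM. Over time, by the same approximate test, 1, MX1, rose and 1, IFITM3, fell. Of 22 genes of the ATF4 amino acid response, 2 were at least 2-fold higher and 2 lower (median -0.06, GFP cells 0.21). DDIT3, a stress factor with a shared locus, was at 25.6, 30.4 and 59.3 FPKM and rose relative to GFP cells, while the amino acid transporters SLC7A11, at a locus of 3 genes, with 79.6, 42.3 and 21.6 FPKM and SLC7A5 with 52.3, 32.4 and 22.3 FPKM fell, 3 and 6 of the list in all.

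Lysosome and autophagy genes were on balance higher, with a median of 0.29 in FD and -0.12 in GFP cells. Of 25, 2 were at least 2-fold higher and 0 lower: CTSK, a cathepsin that cuts collagen, with 28, 47 and 71.1 FPKM, and HEXA, a hexosaminidase with a shared locus, with 50.8, 73 and 124 FPKM. The authors' deposited tables showed that 6, 8 and 14 were higher than in GFP cells at 0.5, 1 and 2 DPT and 3, 1 and 2 lower. By the approximate test of the ratio 6 rose, among them MCOLN1, a lysosomal ion channel, by 0.65 (SE 0.231, adjusted p = 0.0459), and 1, GABARAPL1, fell, which passed no longer with the standard errors held at the median (adjusted p = 0.0557).

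Neuronal gene lists held few members. Of 16 members of neuronal structure and synapse with a change, 3, SNAP25, GRIA2 and DNER, were at least 2-fold higher and 1, TUBB3, lower (median 0.49, GFP cells 0.06), and 1 of 13, VAMP2, rose and 2, TUBB3 and L1CAM, fell in the test over time. GRIA2 and SYP were members only through their FD values at 2 DPT, 1.18 and 1.01 FPKM. The filter therefore tilts the count of higher genes and the FD median upward, and neither is evidence of an increase. Of 12 secretory granule and neuropeptide genes 2 were at least 2-fold higher and 3 lower (median 0.08, or -0.09 with columns scaled to the same total, GFP cells -0.16), and 2, PAM and NPTX1, fell in that test and 0 rose (2 unadjusted). SSTR2, a somatostatin receptor, was at 0.484, 2.17 and 6.28 FPKM in FD cells and 48.6, 95 and 90.6 FPKM in NFD cells. NPTX1, a neuronal pentraxin, was at 46.4, 11 and 4.59 FPKM in FD cells and, over the same time, in NFD cells at 22.7, 67 and 146 FPKM.

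Few genes outside small RNA were highest or lowest at 1 DPT by at least 2-fold on both sides. FGF7, a growth factor for epithelia at a locus shared by 5 genes, PLAT and ID1 were, as was U58, which the small RNA rule did not remove although it is a small RNA. The others were the next by rank and fell short of 2-fold on at least one side. FGF7 was at 27.3, 56.7 and 21.5 FPKM, AKR1C1, an aldo-keto reductase, at 43.6, 76.1 and 33.2 FPKM, ZNF404 at 2.04, 5.02 and 2.46 FPKM, and PDE5A, a cGMP phosphodiesterase with a shared locus, at 120.1, 214 and 123 FPKM. GFP cells too had their highest FGF7 and PDE5A levels at 1 DPT, with 19.4, 38.8 and 29.2 and 334, 531 and 448 FPKM. PLAT, tissue plasminogen activator, had the deepest trough, with 10.4, 3.86 and 35.2 FPKM against 14.2, 18.5 and 126 FPKM in GFP cells, followed by ID1, BAALC, at a locus of 4 genes, with 12.7, 6.44 and 15 FPKM and EXOSC6, an exosome subunit, with 15.6, 8.05 and 17.7 FPKM. U58 was listed at 0, 85.5 and 0 FPKM and NEDD8-MDP1 also ranked among the highest at 1 DPT, and RBM14 and HIST2H2AB among the lowest, at loci shared with other genes or among gene copies. Among genes with a value at all times, which EEF1A1 lacks, the most abundant messages at 2 DPT were FTL, the ferritin light chain, with 10690.4 FPKM, LGALS1, a galectin, with 6198 FPKM, TMSB10 with 5715 FPKM and GAPDH with 4229 FPKM, behind RMRP and RPPH1, structural RNAs of RNase complexes, and the mitochondrial-like MTRNR2L9 and MTRNR2L8, with RPS27 and RPL37A, ribosomal proteins, next.

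Calls against GFP cells were shared only in part by the 3 times. Of the 12728 members, 12222 were tested at all 3 times. In all, 2266 members were called higher and 2220 lower at 0.5 DPT, and 2130 higher and 2625 lower at 2 DPT. Per calls in the authors' deposited tables, 917 members were higher in FD cells at all 3 times, 715 at 0.5 DPT only and 526 at 2 DPT only. Here "only" means not called at the other times, which includes genes just short of the threshold or not tested there. These counts are therefore not numbers of effects particular to 1 time. Lower at all 3 times were 1144, at 0.5 DPT only 474 and at 2 DPT only 592. Calls in opposite directions at 0.5 and 2 DPT were made for 231 members, of which 126 went from lower to higher and 105 from higher to lower.

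Genes with opposite calls at the smallest deposited p-value at both times must pass the test over time. For the genes named here, picked for opposite calls, passing therefore supports nothing. Among those that went from lower to higher, PTGDS had the largest difference. GRPR, a receptor for gastrin-releasing peptide, was at 0.606, 1.46 and 3.7 FPKM in FD cells against 1.5, 0.687 and 1.15 FPKM in GFP cells and rose by 3.0 (SE 0.527, adjusted p = 9.75e-06). DBP, a clock output factor, was at 1.69, 6.45 and 8.25 FPKM against 7.07, 5.44 and 5.37 FPKM and rose by 2.68 (SE 0.531, adjusted p = 8.12e-05), and BHLHE41, a clock repressor, was at 0.789, 1.54 and 2.18 FPKM against 1.81, 1.55 and 0.826 FPKM. C14orf33 and ZP1, a coat protein of the egg, were at 1.59 and 1.08 FPKM at 2 DPT, near the threshold for members. Among those that went from higher to lower, besides FABP3, HMGCS1 and SQLE, were AQP3, a water and glycerol channel, with 10.5, 4.19 and 2.18 FPKM against 4.56, 4.46 and 3.81 FPKM, LEPREL1, a prolyl hydroxylase of collagens, with 12.1, 3.29 and 2.11 FPKM against 8.01, 6.12 and 5.9 FPKM, and ADAMTS9, a protease of the matrix, with 1.31, 1.9 and 1.85 FPKM against 0.485, 1.36 and 3.87 FPKM. ADAMTS9, at a locus of 3 genes, was slightly higher at 2 than at 0.5 DPT in FD cells and far higher in GFP cells.

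**Figure D5:**
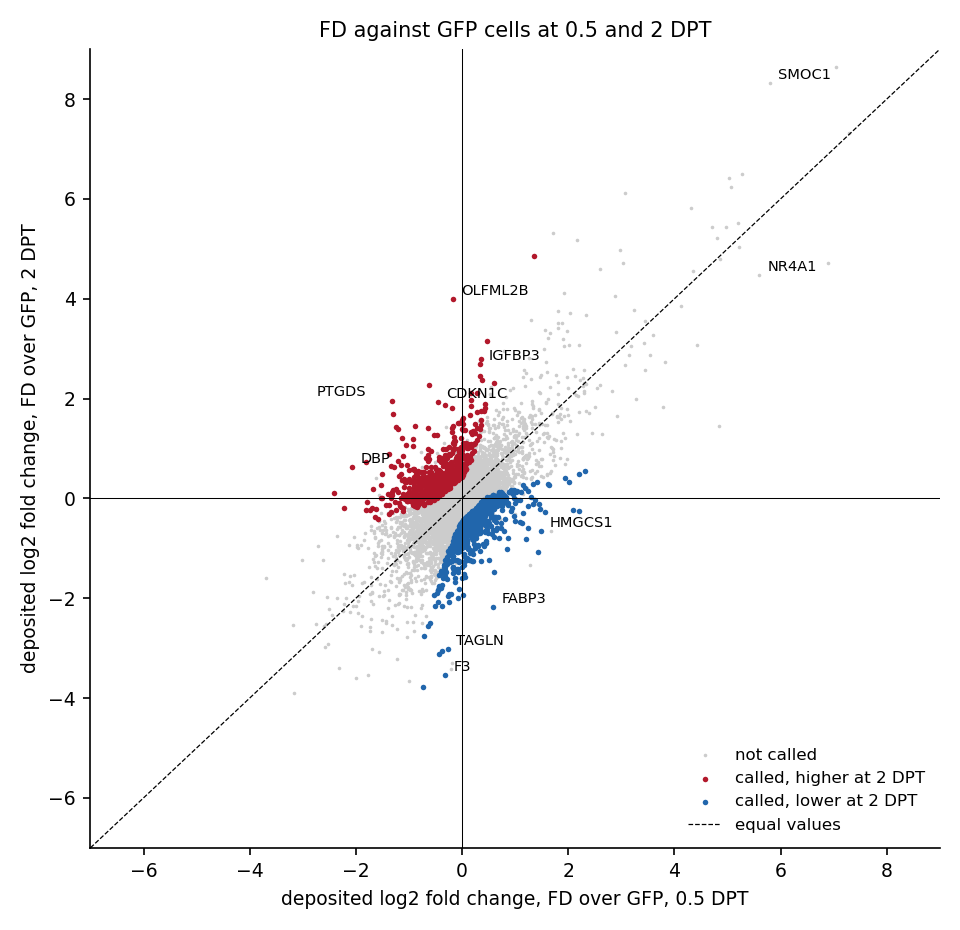
The authors' deposited log2 fold change of FD over GFP cells at 0.5 DPT (horizontal) and at 2 DPT (vertical), 1 point per member outside small RNA, with genes that passed the approximate test of the difference in colour. Genes above the diagonal rose relative to GFP cells and genes below it fell, and those in the upper left and lower right parts crossed from one side of GFP cells to the other.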

How the data were processed

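RNA of 36 libraries, 3 in each of 12 groups, was extracted with TRIzol and sequenced as stranded total RNA with single reads of 50 bases, per the labels' protocols. The submitters' processing notes name TopHat 1.4.1, Cufflinks 2.1.0, Cuffdiff 2.1.0 and the build GRCh37/hg19. The authors deposited 1 FPKM per group, a log2 fold change, a p-value and a q-value per gene, per the file headers. No value per library was used here, so limma could not be fitted, the depth is unknown and no interval or floor is given.

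Tables of 23146 loci were joined by gene and locus, which left 23120 after 26 symbols turned into dates. From these FPKM values log2(FPKM + 1) changes were computed, with a fold of 2 as the mark, and calls against GFP cells used the deposited q-value at 0.05. The difference between deposited log2 fold changes was tested by a two-sided z test with standard errors from the deposited p-values. Whether the deposited p-values give correct standard errors was not tested. Python 3.11.15, numpy 2.4.6, pandas 2.3.3, scipy 1.17.1 and matplotlib 3.10.9 were used. Promoters are RefSeq's on GRCh38.p14, and loci are hg19.

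Genes were named by rule: the 12 largest changes each way, the 6 highest peaks and 6 deepest troughs at 1 DPT, the 10 highest levels at 2 DPT, the 6 largest differences each way among opposite calls against GFP cells, and members of 32 lists. Members and lists were chosen with earlier results of these data known. Alternatives were other pseudocounts, folds, thresholds and scalings. Values of a few genes are not reported here.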

Additional observations from a re-analysis of the deposited data

Results flagged for a closer look

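Of the member genes named here, 96 had a log2 fold change of FD over GFP cells that differed between 0.5 and 2 DPT, from the authors' deposited tables and by the approximate two-sided z test with Benjamini-Hochberg adjustment over all genes tested. Of these 42 rose and 54 fell, and 94 of the 96 also passed with the standard errors held at or above the median for genes of like level. Over all 12229 members in the test, 5.09% passed toward higher and 5.91% toward lower. Many genes were named for their change over time, for opposite calls at 0.5 and 2 DPT, or after their values were seen. The counts of named genes reflect that choice and support nothing. The number of named genes in the test is given in the next section. All values below are differences of log2 fold changes, 2 minus 0.5 DPT, and no explanation was tested.

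Among secreted and membrane proteins, the ratio to GFP cells rose for PTGDS by 3.29, GRPR by 3.0, APOE by 1.63, FGL2 by 2.02, TXNIP by 1.5, GAS1 by 0.93, OLFML2B by 4.16 and IGFBP3 by 2.35. It also rose for CFD by 2.91, MAOA by 2.69, MFAP4 by 1.03, FBLN1 by 0.49, SLC40A1 by 1.12, CCL2 by 1.59, ANGPTL2 by 1.06 and PGF by 1.68. The CDK inhibitors and stress genes CDKN1C by 2.38, CDKN2B by 1.51, GDF15 by 0.88 and DDIT3 by 1.11 went the same way. Histones rose as well, HIST3H2A by 1.95, HIST1H1C by 1.16 and HIST2H2AB by 1.14, as did the replication genes GINS4 by 1.13 and MCM4 by 0.58. Of signalling and lysosomal genes, it rose for PKIA by 0.86, MCOLN1 by 0.65, CD68 by 0.78, MX1 by 0.93, VAMP2 by 0.56 and CA12 by 0.68. In the clock and its outputs it rose for DBP by 2.68, BHLHE41 by 2.6, NR1D1 by 2.33, PER3 by 1.5, NR1D2 by 1.16 and TEF by 1.1. Low or other genes that rose were C14orf33 by 2.67, ZP1 by 2.54, EXOSC6 by 0.605 and PLK1 by 0.93. NEUROG2 rose by 1.54, which reflects levels of 12.7 and 15.4 FPKM in FD cells and 36.7 and 15.3 FPKM in GFP cells at 0.5 and 2 DPT.

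Sterol and lipid genes fell relative to GFP cells, with a difference of -2.14 for HMGCS1, -1.86 for SQLE, -1.84 for SC4MOL, -1.4 for INSIG1 and -2.75 for FABP3. The fatty acid genes fell too, with -0.87 for SCD, -0.77 for FASN and -0.57 for FADS2. In mitosis and replication genes the difference was -1.36 for CDK1, -1.29 for CCNB2, -1.26 for AURKA, -0.91 for DLGAP5, -0.87 for TOP2A, -1.79 for UHRF1, -1.13 for RRM2 and -0.93 for GINS2. In contractile and matrix genes it was -2.75 for TAGLN, -1.23 for TPM2, -0.91 for MYL9, -2.68 for TNC, -1.41 for FBN2, -2.5 for ADAMTS9 and -2.08 for LEPREL1. In receptors, clotting and growth factors it was -3.22 for F3, -1.39 for PLAT, -2.68 for IL7R, -1.01 for FLT1, -0.94 for FGF7, -3.04 for KIAA1199 and -2.0 for AQP3. In signalling genes it was -1.85 for SNAI1, -1.41 for JUNB, -1.23 for ETV4, -0.59 for SMAD1, -0.68 for SMAD9, -1.33 for IL6 and -0.76 for IFITM3. In metabolic and redox genes it was -1.24 for SLC2A1, -1.06 for PFKP, -0.66 for LDHA, -1.31 for GCLM and -0.62 for TXN, and in transporters and chaperones -0.99 for SLC7A11, -1.08 for SLC7A5, -0.68 for HSP90AA1 and -0.53 for HSPA8. The remaining falls were -0.87 for NPTX1, -0.51 for PAM, -0.64 for TUBB3, -1.36 for L1CAM and -0.44 for GABARAPL1, and in the clock -0.91 for ARNTL, -1.09 for NPAS2 and -0.73 for BHLHE40.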

How the results depend on the processing

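With a pseudocount of 0.1, with the median change set to 0 and with every column scaled to the same total, no named gene that was at least 2-fold higher or lower in FD cells changed sign. That was fixed in advance, because a pseudocount cannot change a sign and both scalings shift changes by far less than 2-fold. Of 187 named genes, 8 with changes of at most 0.17 changed sign with the same total (CREM, EXOSC6, FBN2, MYOCD, PAM, PDE5A, RPS27 and ZBTB42). Of these, 2 (CREM and FBN2) also changed sign with the median change at 0, and 0 with the pseudocount of 0.1. Medians of 3 lists near 0 (interferon response, secretory granule and contractile genes) changed sign with the same total. Of 56 alternatives to the main counts 44 stayed within 1.5 times and 12 did not. The 44 include leaving out the filter on low values, which could not alter the counts at 2 against 0.5 DPT. Among the 44, the step from 1 to 2 DPT went from 299 higher and 228 lower to 232 higher and 332 lower with the same total. With a fold of at least 1.5, 1898 members were higher and 1663 lower at 2 DPT. With a pseudocount of 0.1, 513 were higher in the first step and 482 in the second, and 721 in GFP cells over both. With a fold of at least 2 added to the call against GFP cells, the numbers at 0.5 DPT were 299 higher and 349 lower, those at 1 DPT 378 and 436, and those at 2 DPT 420 and 468. At an adjusted p of 0.1, 1111 fell relative to GFP cells. Of the 187 genes, 34 moved with the pseudocount of 0.1, as did 2 list medians, and of 174 differences over time 2, of PLK1 and GABARAPL1, no longer passed with the standard errors held at the median. These causes were not tested.

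No paired analysis was possible because the tables used here hold 1 value per group and none per library, and leaving out each library in turn was not run for the same reason. The standard error planned from a deposited test statistic was not run, since the tables used here have no such column. Depth is unknown, so genes listed at 0 have no limit of detection.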

Other observations

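Genes of the circadian clock were chosen after their values were seen and are given as values. NR1D1, a clock repressor that shares its locus, was at 2.56, 6.04 and 5.69 FPKM in FD cells at 0.5, 1 and 2 DPT and at 4.74, 3.5 and 2.09 FPKM in GFP cells. NR1D2 was at 10.2, 24 and 22.5 FPKM and PER3, a period protein, at 1.86, 3.16 and 3.92 FPKM in FD cells. ARNTL, the activator BMAL1, was at 11, 6.4 and 5.45 FPKM, and NPAS2, its partner, at 1.74, 0.949 and 1.14 FPKM. In the approximate z test over time 6 of 16 clock genes rose relative to GFP cells and 3 fell. The 3 that fell were ARNTL, NPAS2 and BHLHE40.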
